A study of Mus musculus with 6 samples.

Results

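The liver transcripts described here were those of 6 genes of ketone body synthesis, export and use and of the hormone FGF21, namely Acat1, Bdh1, Slc16a1, Slc16a6, Oxct1 and Fgf21. They were found as the noncontrol probes whose RefSeq accession on the array belongs to one of these genes, which gave 8 of 56605 probes and 6 of the 22911 genes that could be named. Bdh1 and Oxct1 had more than 1 probe each, and the brightest probe (the highest mean signal over the 6 arrays) stood for a gene, with the other probe given beside it. Total RNA came from the right hepatic lobe of male mice, 12 weeks old, kept for 28 days on granulated regular chow (control, n = 3) or on chow of 75% regular food and 25% soy bean powder (soy-fed, n = 3). The strain is not given in the sources used here, and the labels call the 3 samples of a group biological replicates, each a mouse. Each liver was hybridised to 1 single-colour Agilent array, on which 36366 to 38163 of 59305 noncontrol spots were well above background in the controls and 31308 to 32498 in the soy-fed livers. The first of 3 slides carried control 1, control 2 and soy 1, the second soy 2 alone, and the third control 3 and soy 3. Values are normalized log2 signals, so a difference of 1 is a doubling. Signals of different probes were ranked only to choose the brightest probe of a gene and to name the brightest marker of a list. They were not read as transcript levels of different genes.

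Ketone bodies are made in the mitochondria of hepatocytes from the acetyl-CoA that fatty acid oxidation supplies, above all in fasting or on a diet rich in fat. The liver exports acetoacetate and beta-hydroxybutyrate through monocarboxylate transporters and lacks most of the enzyme that other tissues need to burn them. FGF21 is a hormone that the liver secretes in fasting and when dietary protein is short, under control of the nuclear receptor PPAR alpha and of the stress factor ATF4, and it acts on cells that carry an FGF receptor together with the co-receptor beta-Klotho.

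The tissue label was checked first against marker genes. All 7 hepatocyte markers, with albumin (Alb) the brightest, were well above background, and none of them passed the test between diets (median change -0.14 on the log2 scale, and -0.04 without soy 3). A fold change in bulk liver cannot tell fewer cells of a type from less RNA per cell.

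No member gene passed the test that was applied to all probes. A probe was called when its adjusted p (limma, adjusted by the Benjamini-Hochberg method for all probes tested) was under 0.05 and its fold change above 1.5 or under 0.66, and 0 of the 8 member probes met both, where 0.350% of all probes did (198 of 56605). Of the 6 genes, 5 were higher and 1 was lower on average in soy-fed livers, with a median change of 0.21 against -0.01 over all named genes. Fgf21, Slc16a1 and Oxct1 did not overlap between the groups, each with its lowest soy-fed liver above its highest control liver, which made 3 of the 8 probes, where 18.0% of all probes with a value on every array were without overlap in either direction. The plot of signal on each array shows how far apart the groups lay relative to the spread within them.

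**Figure D1:**
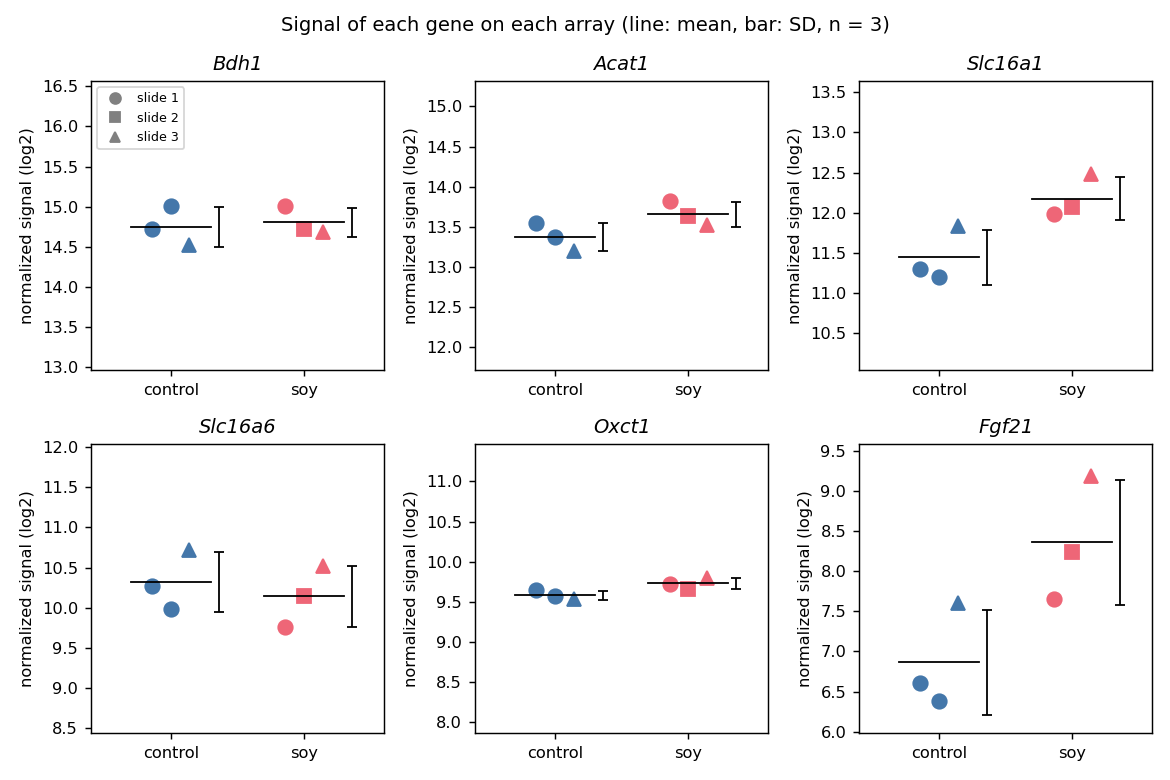
Normalized log2 signal (vertical axis) of the brightest probe of each of the 6 genes in control and soy-fed livers, 1 point per array with its slide given by the symbol; lines are group means, bars are SDs (n = 3), and all panels span the same number of log2 units. Fgf21 (6.87 against 8.36) and Slc16a1 (11.45 against 12.18) do not overlap between diets, and the slide 3 arrays are the highest of their group for both.

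Fgf21, which encodes the liver hormone itself, had the largest spread of the 6 genes among soy-fed livers, where every array measured it well above background. Its signal (NM_020013) was 6.60, 6.39 and 7.61 in control livers 1, 2 and 3. In soy-fed livers 1, 2 and 3 it was 7.65, 8.24 and 9.18. All soy-fed livers therefore lay above all controls, but control 3 and soy 1 were only narrowly apart, and the third replicate was the highest of either diet. The means were 6.87 ± 0.65 in controls and 8.36 ± 0.77 in soy-fed livers (SD, n = 3), a difference of 1.49 (SE 0.43, 95% interval 0.484 to 2.498) on this scale. This did not pass after adjustment (limma, adjusted p = 0.241), although the unadjusted interval lay above 0. Within slide 3, where both livers were measured well above background, the soy-fed liver was higher by 1.58. On slide 1 neither control was well above background, so no within-slide difference is given there.

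The Fgf21 probe was dim. The size of its difference depended on the background and scaling settings, so 1.49 holds for the settings used here and no fold change is given. The probe was well above background on 1 of 3 control arrays (control 3) and on all 3 soy-fed arrays, whereas the 7 other probes were so on all 6 arrays. Before any correction, the median intensity of the spot was 106, 83.5 and 188 in controls 1, 2 and 3. It was 223, 289 and 593 in soy-fed livers 1, 2 and 3. The local background around the spot was between 54.5 and 63 throughout, so that control 1 and control 2 rose little above it while soy 3 stood far clear of it. The difference was 1.45 with no background correction (limma, adjusted p = 0.25) and 1.87 when the correction added a constant of 16 in place of 50 (limma, adjusted p = 0.284). It was 3.54 on the scanner software's processed signal, which was also scaled to the 75th percentile (limma, adjusted p = 0.0852). Without soy 3 it was 1.08 (limma, adjusted p = 0.437), the lowest of all settings tried.

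**Figure D2:**
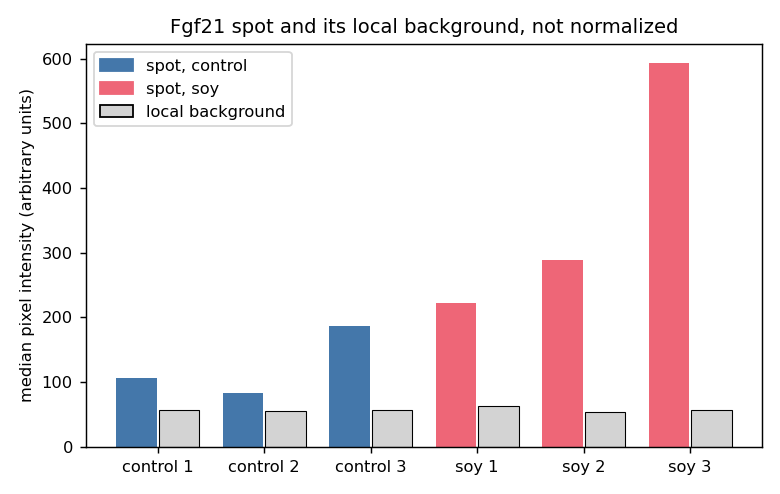
Median pixel intensity (vertical axis, arbitrary units, from 0) of the Fgf21 spot and of its local background on each of the 6 arrays, as scanned and before any normalization. The spot reads 83.5 to 188 in control and 223 to 593 in soy-fed livers, over a background of 54.5 to 63.

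Promoter sequence is shown for Fgf21 and Slc16a1, the members without overlap on their only probe, so that the short motifs listed below can be read in place. The windows are the 250 bases before the annotated start in RefSeq (build GRCm38.p6), 5′ to 3′ on the strand of the gene, with motif matches in capitals. Fgf21 lies on the minus strand of chromosome 7, and its window is chr7:45615491-45615740. Slc16a1 lies on the plus strand of chromosome 3, with the window chr3:104638414-104638663.
Fgf21: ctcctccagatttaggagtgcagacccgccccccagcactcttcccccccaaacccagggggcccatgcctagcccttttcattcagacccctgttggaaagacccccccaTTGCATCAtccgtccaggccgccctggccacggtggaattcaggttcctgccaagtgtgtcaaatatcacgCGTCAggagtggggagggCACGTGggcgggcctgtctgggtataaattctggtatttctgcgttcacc
Slc16a1: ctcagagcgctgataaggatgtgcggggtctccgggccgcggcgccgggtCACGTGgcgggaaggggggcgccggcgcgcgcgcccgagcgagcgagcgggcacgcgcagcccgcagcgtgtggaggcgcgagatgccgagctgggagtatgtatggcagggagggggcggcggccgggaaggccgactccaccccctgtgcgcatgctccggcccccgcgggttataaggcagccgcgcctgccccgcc

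Letters searched on both strands were AGGTCA (a nuclear receptor half-site), TGACG (a half-site of the cAMP response element), TGATGNAA (the core of the amino acid response element that ATF4 binds) and CACGTG (the E-box bound by factors such as CLOCK with BMAL1). In the Fgf21 window the capitals mark, in order, TTGCATCA (the response element core read on the opposite strand, 139 to 132 bases before the start), CGTCA (the opposite strand of TGACG, 68 to 64 bases before) and CACGTG (50 to 45 bases before). The Slc16a1 window held CACGTG alone, 200 to 195 bases before the start, in sequence of 76.4% G and C against 59.6% for Fgf21. Windows were also matched for Oxct1 and for 2 starts of Bdh1, and none of these 3 held any of the letters. No 2 matches overlapped. Among all 32851 promoter windows of the same length, 3.45% held TGATGNAA, 6.02% CACGTG, 14.02% AGGTCA and 17.8% TGACG. A match of letters is a description of the sequence and was not tied to a bound factor here.

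Export of ketone bodies from the hepatocyte was represented by 2 transporters, neither of which passed. Slc16a1 encodes MCT1, a proton-coupled transporter of lactate, pyruvate and ketone bodies in most tissues, and was the member with the largest difference among those measured on all arrays. Its signal (NM_009196) was 11.30, 11.20 and 11.84 in control livers 1, 2 and 3. In soy-fed livers it was 11.98, 12.07 and 12.48. The groups were without overlap, but control 3 came within a small step of soy 1. The means of 11.45 ± 0.34 and 12.18 ± 0.27 (SD, n = 3) differed by 0.73 (SE 0.20, 95% interval 0.259 to 1.199), 1.66-fold, which did not pass after adjustment (limma, adjusted p = 0.219). The difference was 0.73 within slide 1 and 0.64 within slide 3. It passed under only 1 of 18 other settings, the processed signal, at 0.77 (limma, adjusted p = 0.0495), a setting that called 23.2% of all probes and put the median of all probes at 0.13.

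Slc16a6 encodes MCT7, a transporter that carries beta-hydroxybutyrate out of fasting hepatocytes. Its signal (NM_001029842) was 10.28, 9.98 and 10.72 in controls and 9.76, 10.14 and 10.52 in soy-fed livers. The groups overlapped, with the lowest liver of all in the soy-fed group and the highest among the controls. The difference of -0.18 (SE 0.24, 95% interval -0.74 to 0.37) did not pass (limma, adjusted p = 0.816), and its sign turned when control 3 or soy 1 was left out, to 0.01 and 0.00.

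The wider family of monocarboxylate transporters and their membrane chaperones held 16 genes, all on the array. Slc16a13, which encodes MCT13, a transporter present in liver, was the only one that passed, and it was higher in soy-fed livers. Its signal (NM_172371) was 7.47, 7.42 and 8.15 in controls and 9.16, 9.23 and 9.08 in soy-fed livers. The soy-fed livers were tightly grouped and well separated from the controls, a difference of 1.47 (SE 0.19; limma, adjusted p = 0.0338). Slc16a13 is in the list of changed genes that the study chose from these same livers, so its direction is not independent evidence. It passed without control 3 but not without any other single liver (limma, adjusted p from 0.014 to 0.136), and it did not pass with the slide (limma, adjusted p = 0.15) or the replicate number (0.0827) as a block. Of the 16 genes, 8 were higher and 8 lower, with a median change of 0.04. That median lay between 0.01 (without control 3) and 0.20 (processed signal) over the alternatives. Slc16a4, counted as higher, and Slc16a14, counted as lower, were well above background on no array. Over the 13 genes that every array of 1 diet or the other measured well above background, 7 were higher and the median was 0.13. On the processed signal 10 were higher and 4 passed, where 23.2% of all probes did, and 11 were higher after the 75th-percentile shift. By their brightest probes 4 of the 16 were without overlap, 3 higher and 1 lower, where 20.4% of all named genes were. Beside Slc16a1 and Slc16a13 these were Slc16a12, a transporter of creatine, at 0.72 (SE 0.20; limma, adjusted p = 0.206) and Slc16a10, a transporter of aromatic amino acids, at -0.23 (SE 0.11; limma, adjusted p = 0.462; -0.15 without control 2), both named after their values were seen. Beside Slc16a1, Slc16a6 and Slc16a13, the remaining 13 genes ranged from -0.36 to 0.72.

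Synthesis of ketone bodies was represented by the first and the last step of the mitochondrial pathway. Acat1, the mitochondrial thiolase that joins acetyl-CoA units to acetoacetyl-CoA, read 13.55, 13.38 and 13.21 in controls (NM_144784). It read 13.83, 13.63 and 13.52 in soy-fed livers. Control 1 lay above soy 3, so the groups overlapped, and the third replicate was the lowest of both diets, the reverse of Fgf21 and Slc16a1. The means of 13.38 ± 0.17 and 13.66 ± 0.16 (SD, n = 3) differed by 0.28 (SE 0.13, 95% interval -0.02 to 0.59), 1.22-fold, which did not pass (limma, adjusted p = 0.465). Within slides the differences were 0.37 and 0.32. The sign was the same under all 18 other settings, from 0.20 to 0.37, though some of these could not move the estimate, as set out at the end.

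Bdh1 encodes the mitochondrial dehydrogenase that reduces acetoacetate to beta-hydroxybutyrate. Its brightest probe (NM_175177) read 14.72, 15.01 and 14.52 in controls and 15.01, 14.72 and 14.69 in soy-fed livers. These ranges were almost the same. The difference of 0.06 (SE 0.15, 95% interval -0.30 to 0.41) did not pass (limma, adjusted p = 0.919), and the other probe, for transcript NM_001122683, gave 0.05 (SE 0.16; limma, adjusted p = 0.935). On both probes control 2 and soy 1 were the highest of their groups, and both differences turned sign when control 3 or soy 1 was left out.

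Oxct1 encodes the CoA transferase with which muscle, heart and brain use acetoacetate, an enzyme that hepatocytes hold at very low levels. Its brighter probe (NM_024188) read 9.65, 9.57 and 9.54 in controls and 9.73, 9.66 and 9.80 in soy-fed livers. The groups were without overlap by a margin smaller than the distance between livers of the same diet. The difference was 0.14 (SE 0.09, 95% interval -0.08 to 0.36), 1.11-fold, and did not pass (limma, adjusted p = 0.617). The other probe for the same transcript read 9.57, 9.58 and 9.40 in controls and 9.59, 9.40 and 9.73 in soy-fed livers, which overlapped (0.06, SE 0.12; limma, adjusted p = 0.893). The 2 probes thus differed on whether the groups were apart.

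Of the 7 genes listed for ketone use and for the cytosolic branch that feeds lipid synthesis, 6 were matched on the array (Acat2 was not) and none passed. Among them 2 were higher and 4 lower, with a median change of -0.03 that turned positive on the processed signal (0.49), after a shift to a common 75th percentile (0.16) and without control 2 (0.01). On the processed signal 1 of the 6 passed, where 23.2% of all probes did, and 4 were higher. Oxct2a and Oxct2b, both counted as lower, were well above background on no array, and Hmgcll1, counted as higher, on 1 array of each diet. The median of -0.03 and its turns of sign thus rest partly on unmeasured signals. Over the 3 genes well above background 1 was higher and the median was -0.49. Aacs, the cytosolic synthetase that returns acetoacetate to acetoacetyl-CoA, read 12.65, 12.35 and 13.24 in controls and 12.95, 12.05 and 11.75 in soy-fed livers. This overlapped and went in opposite directions within the slides, 0.45 in slide 1 and -1.49 in slide 3, with a fitted difference of -0.50 (SE 0.33; limma, adjusted p = 0.625). Bdh2, a cytosolic dehydrogenase first described as an enzyme of ketone use, differed by -0.49 (SE 0.30; limma, adjusted p = 0.587) and also went opposite ways within the slides, 0.08 and -0.60. With 1 liver left out, Bdh2 lay between -0.84 (without soy 1) and -0.31 (without control 2 or soy 2), and it was -0.21 with the slide as a block, while Aacs lay between -0.85 (without soy 1) and -0.25 (without control 3 or soy 3).

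Among the 10 genes of FGF21, its receptors and related hormones, none passed, 7 were higher, and the median change was 0.09. Over the alternatives that median lay between -0.02 (slide as a block) and 0.24 (75th-percentile shift). Fgf15 and Kl, both counted as higher, were well above background on no array. Over the 8 genes that every array of 1 diet or the other measured well above background, 5 were higher and the median was 0.13. On the processed signal 1 gene passed, where 23.2% of all probes did, and 5 were higher. Klb, the beta-Klotho co-receptor without which FGF21 does not signal, was added after its values were seen. It differed by 0.01 (SE 0.21; limma, adjusted p = 0.994), with controls at 11.31, 10.42 and 10.92 around soy-fed livers at 10.84, 10.86 and 10.98. Fgfr1, the receptor through which FGF21 acts in fat and brain, read 10.003, 9.845 and 9.250 in controls and 9.18, 8.98 and 8.76 in soy-fed livers by its brightest probe. It was without overlap and lower by a difference of -0.73 (SE 0.21; limma, adjusted p = 0.233), while its 3 dimmer probes gave -0.25, -0.10 and -0.08, none of them well above background on any soy-fed array. The probe for Fgf23, a hormone of bone that lowers phosphate, read 11.60, 12.56 and 12.99 in controls and 13.29, 13.51 and 13.09 in soy-fed livers, a difference of 0.91 (SE 0.32; limma, adjusted p = 0.334) that was 0.52 without control 1. This signal was well above background on all 6 arrays, and whether the probe measures Fgf23 in liver was not tested. By their brightest probes 6 of the 10 genes were without overlap, 4 higher and 2 lower, against the 20.4% of all named genes. Those not yet given were named after their values were seen. Fgfr4, the main FGF receptor of hepatocytes, differed by 0.25 (SE 0.11; limma, adjusted p = 0.445), and Fgfr2, another receptor of the family, by -0.12 (SE 0.10; limma, adjusted p = 0.677; -0.07 without soy 1 or after the 75th-percentile shift). The probes of Fap, a protease that inactivates FGF21, went opposite ways, with 0.61 (SE 0.25; limma, adjusted p = 0.42) for the brightest and -0.26 for one that was well above background on no array. The brightest Fap probe gave 0.30 without soy 2 and 1.38 on the processed signal, and the mean of both probes 0.17.

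By their brightest probes, 0 of the 10 regulators of ketogenesis and of Fgf21 were without overlap, against 20.4% of all named genes, with 5 higher and 5 lower, a median change of 0.00 and a smallest adjusted p of 0.632 (limma). With 1 liver left out, between 3 (without control 3 or soy 1) and 8 (without control 1) of the 10 were higher, and the median lay between -0.05 and 0.05. The largest differences were -0.24 for the deacetylase Sirt1, 0.23 for the fasting-activated factor Foxa2 and 0.21 for Atf4. Each depended on single livers, Sirt1 from -0.37 (without control 3) to -0.11 (without control 1), Foxa2 from 0.03 (without control 1) to 0.48 (without control 3) and Atf4 from 0.12 (without soy 3) to 0.35 (without soy 1). Among their other probes, a dimmer one for Sirt1 (limma, adjusted p = 0.365) and one for the corepressor Ncor1 (-0.25; limma, adjusted p = 0.394) were without overlap and lower. The dimmer Sirt1 probe was well above background on no soy-fed array, so the size of its difference is not given. The brightest Ncor1 probe gave -0.02 and its 3 further probes 0.14 to 0.23, so the probes of that gene went both ways. Ppara, the receptor that switches on ketogenic genes, was named after its values were seen. It differed by 0.07 (SE 0.20; limma, adjusted p = 0.929) by its brightest probe and by -0.10 (SE 0.23; limma, adjusted p = 0.905) by the other, and the mean transcript level of such a factor does not report its activity.

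Mitochondrial entry of fatty acids, which supplies the acetyl-CoA for ketone bodies, was the pathway list with the largest median change, 0.51, and 1 of its 6 genes passed. Crat, which encodes carnitine acetyltransferase and exchanges acetyl groups between CoA and carnitine, read 11.04, 10.40 and 11.48 in controls and 12.78, 12.71 and 12.95 in soy-fed livers. The soy-fed livers all lay more than 1 log2 unit above the highest control, a difference of 1.84 (SE 0.25; limma, adjusted p = 0.0388), and the dimmer probe gave 0.66 (SE 0.14; limma, adjusted p = 0.117). Crat is also in the list that the study chose from these livers. It passed without control 2 or control 3 but not without any other single liver (limma, adjusted p from 0.0258 to 0.143), nor with the slide (limma, adjusted p = 0.137) or the replicate number (0.0506) as a block. With the probes of the gene averaged the difference was 1.25 (limma, adjusted p = 0.0621).

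By their brightest probes, 4 of the other 5 genes in that list were without overlap (5 of 6 with Crat, against 20.4% of all named genes) and none passed, and they were named after their values were seen. Slc25a20, the carnitine carrier of the inner membrane, differed by 0.54 (SE 0.10; limma, adjusted p = 0.0962). Cpt2, which releases acyl-CoA inside the matrix, differed by 0.47 (limma, adjusted p = 0.159), and Acsl1, which activates long-chain fatty acids, by 0.76 (limma, adjusted p = 0.277; 0.50 without control 2). The other Cpt2 probe gave 0.35 (limma, adjusted p = 0.353), without overlap. The other Acsl1 probe gave 1.09 (SE 0.39; limma, adjusted p = 0.349), with overlap between the groups. Cpt1a, the gatekeeper of entry in liver, was lower in soy-fed livers by -0.51 (SE 0.15; limma, adjusted p = 0.256), so the genes of this step did not all lie on one side. The plot of changes with their intervals sets the 6 described genes among these neighbours.

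**Figure D3:**
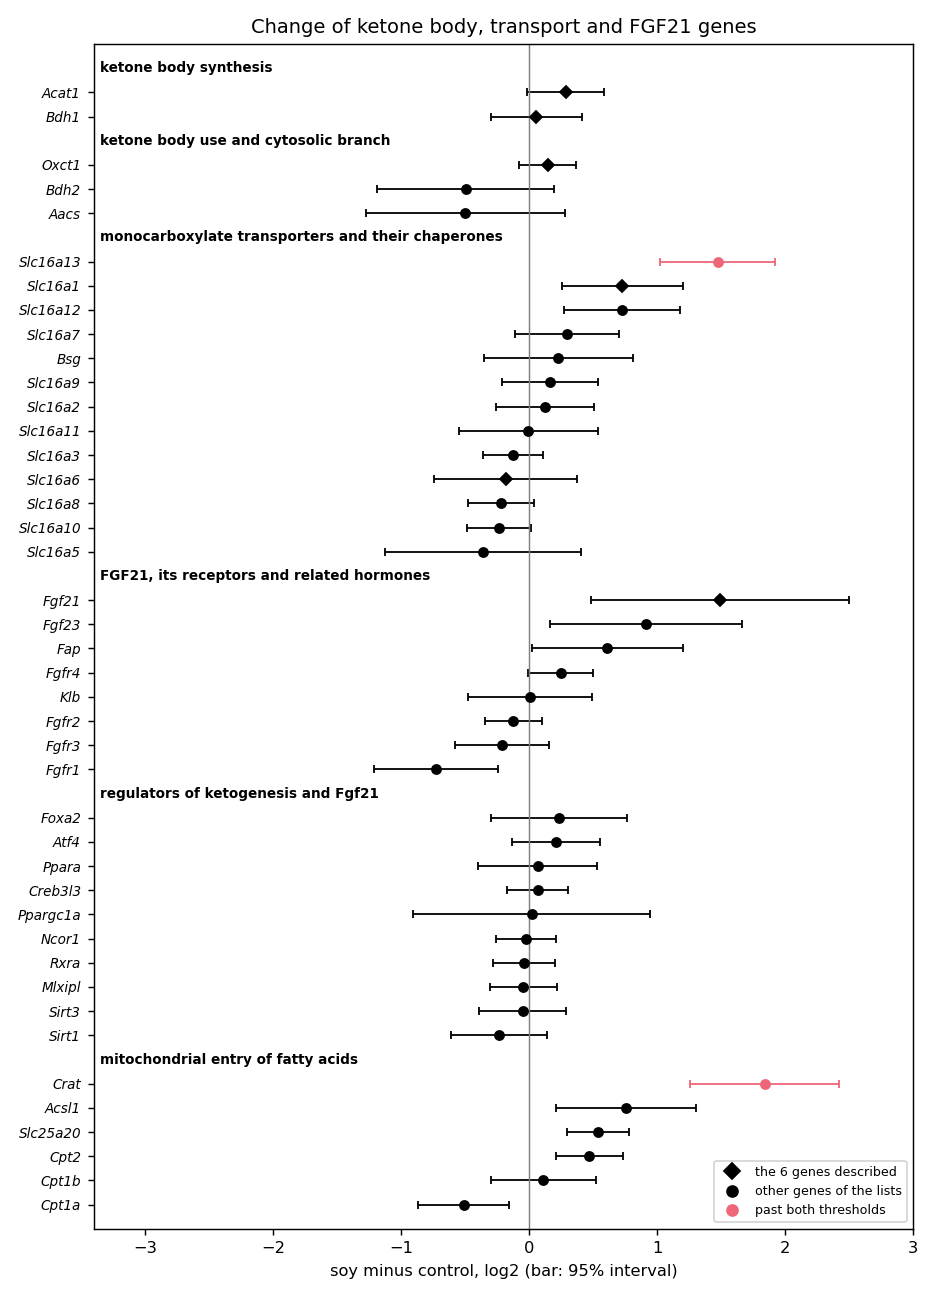
Difference of soy-fed minus control livers (horizontal axis, log2, with 95% intervals that are not adjusted for the number of probes) by the brightest probe of the reported list genes that every array of 1 diet or the other measured well above background. Diamonds mark the 6 genes described. Slc16a13 (1.47) and Crat (1.84) are drawn in colour as the only genes past both thresholds.

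Profiles most like Fgf21 and Slc16a1 were sought among genes measured well above background on all 6 arrays, by the root mean square difference of the log2 profiles after each was centred on its mean. Nearest to Fgf21 among 13499 genes were Tubb2a (0.15), the clock gene Arntl (0.18), which encodes BMAL1, and Acnat1 (0.25), against a root mean square of 0.95 for Fgf21 around its own mean. Because the Fgf21 probe was well above background on only 1 of 3 control arrays, these distances and their order hold for the background correction used (offset 50) and were not recomputed under another. For Slc16a1, the nearest of 13498 genes were Ugt2b35 (0.06), the clock gene Clock (0.09) and Stmn1 (0.09), against 0.44 for Slc16a1 itself. All of them shared the feature that control 3 lay nearer to the soy-fed livers than the other controls did, and that soy 3 was the highest liver of all. Fgf21 and Slc16a1 had this feature themselves, so choosing the nearest profiles brought it along. None of the 6 passed the test between diets. This ranking rests on 6 livers that differ by diet and slide, and the part of the slide in the shared profile was not tested.

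**Figure D4:**
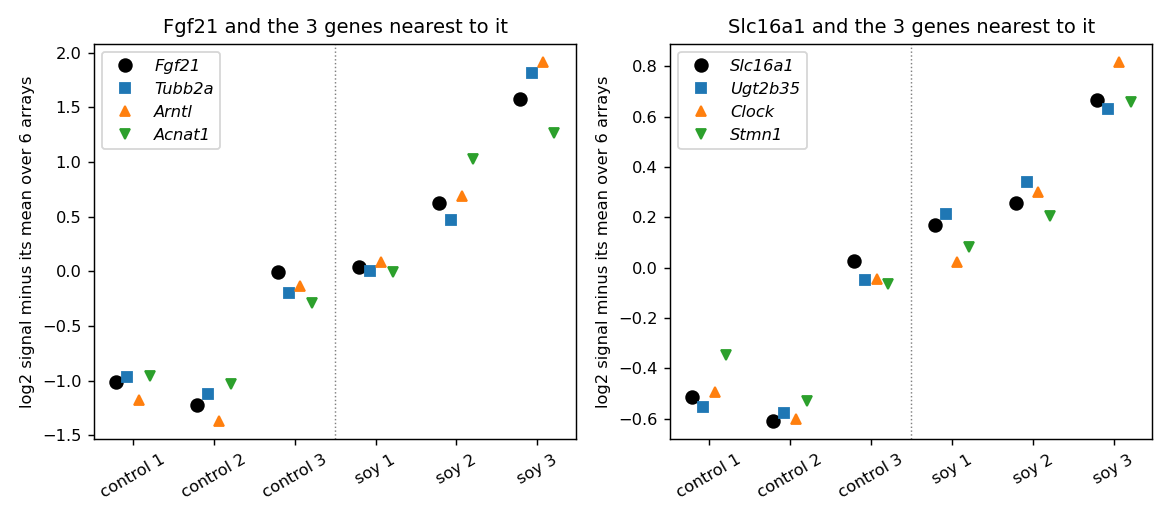
Log2 signal minus the mean of the same gene over the 6 arrays (vertical axis) on each array, for Fgf21 and the 3 genes nearest to it and for Slc16a1 and the 3 genes nearest to it. In both panels control 1 and control 2 are lowest and soy 3 is highest for every gene drawn.

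Markers of other cell types were read beside these genes, since the sampled tissue holds more than hepatocytes. No gene of the 9 marker lists passed, though 1 acinar marker did when only probes well above background were tested, and 2 acinar and 2 skeletal muscle markers did on the processed signal. Of all probes tested, 1.52% passed in the former setting and 23.2% on the processed signal. The 6 pancreas acinar markers were all lower in soy-fed livers, with a median change of -0.54 (-0.35 after the 75th-percentile shift and -1.02 on the processed signal), a smallest adjusted p of 0.0727 (limma) and Cela1 the brightest (14.78, 15.43 and 15.15 in controls, 14.31, 14.66 and 14.18 in soy-fed livers). Cpa1, Prss2 and Pnlip were well above background on no soy-fed array, so that median rests partly on unmeasured signals. Over the 3 acinar markers well above background the median was -0.73. The mean signal of that list was 9.52, 9.83 and 9.33 in controls and 8.90, 9.06 and 8.90 in soy-fed livers, so it separated the diets in the direction opposite to Fgf21 and Slc16a1. Red cell and neutrophil markers had a median change of 0.42 (5 of the 5 on the array higher, Hba-a1 the brightest, Ngp not well above background on any array), with means of 10.91, 10.82 and 11.12 in controls and 11.28, 11.54 and 11.26 in soy-fed livers. Median changes were 0.19 for Kupffer cells (5 of 6 higher), 0.07 for endothelial cells, -0.12 for stellate cells, -0.01 for cholangiocytes, -0.07 for adipocytes and 0.00 for skeletal muscle. Over the alternatives the sign held for Kupffer and stellate cells and turned for the other 4 types, whose medians ran from -0.0042 (without soy 3) to 0.12 for endothelial cells, from -0.14 to 0.11 for cholangiocytes, from -0.13 to 0.48 for adipocytes and from -0.10 to 0.04 for skeletal muscle. With 1 liver left out, the Kupffer median lay between 0.07 (3 of 6 higher, without control 1 or soy 3) and 0.31 (without control 3), the stellate median between -0.19 (without soy 3) and -0.05 (without control 1), and the red cell and neutrophil median fell to 0.23 without control 2. Adipoq and Plin1 of fat, Ckm and Myh4 of muscle and Epcam of the bile duct were well above background on no array. Lep and Cidec of fat, Pvalb, Tnnt3 and Mylpf of muscle and Krt19, Sox9 and Spp1 of the bile duct were so on every array. The other markers of these lists were so on some arrays only. The part of such cells in the differences of Fgf21 and Slc16a1 was not tested.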

How the data were processed

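Liver RNA of 3 control and 3 soy-fed male mice was hybridised to single-colour Agilent arrays from 100 ng of total RNA (RNA integrity number above 8), one array per liver. The authors deposited scanner output of Feature Extraction 11.5.1.1 (array design annotated on mm9), from which uncorrected, unscaled median intensities of spots and their surroundings were taken. A log2 table deposited by the authors departed by at most 0.056 from the values used here. None of these columns holds a comparison made by the authors.

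Background was corrected with normexp (offset 50). After removal of control spots the arrays were quantile normalized, log2 values were taken, spots that the scanner software marked as outliers were dropped, and replicate spots were averaged per probe. All 56605 probes were tested for soy-fed against control with limma 3.58.1 in R 4.3.3 (lmFit, eBayes) and Benjamini-Hochberg adjustment over all probes, a procedure tested on simulated data. Microarray precision is limited by the 3 arrays per group, and p-values measure the spread between these livers. Accessions were matched to RefSeq symbols (GRCm38.p6) for 32994 probes (58.3%). Positions of probes are not given because the builds differ. Tables and plots were made with Python 3.11.15, pandas 2.3.3 and matplotlib 3.10.9.

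The 6 genes and the gene lists were chosen with earlier results of these data known. Beside every probe of the 6 genes, the text names, for each pathway list, each gene past both thresholds or else the 3 largest changes among genes that every array of 1 diet measured well above background, and for Fgf21 and for the most changed member measured on all arrays the 3 nearest profiles. Other background corrections, scalings, filters, blocks and the omission of each array were tried. Of the synthesis list, 2 genes are not reported here. The microRNA sequencing and qRT-PCR of the study were not analysed here.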

Additional observations from a re-analysis of the deposited data

How the results depend on the processing

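No member gene passed both thresholds under any setting except Slc16a1 on the processed signal (0.77; limma, adjusted p = 0.0495). Over 18 alternatives Fgf21 stayed higher, from 1.08 to 3.54 (limma, adjusted p from 0.0675 to 0.503), as did Slc16a1 (0.58 to 0.92), Acat1 (0.20 to 0.37) and the brighter Oxct1 probe (0.10 to 0.18). Some of these settings could not move the estimate of a gene with 1 probe and no marked spot. They were the filter on background, outlier spots kept, other eBayes options, the mean of probes and the replicate block. Their unchanged sign for Fgf21, Slc16a1 and Acat1 was therefore fixed in advance. With 1 array left out, Fgf21 was between 1.08 and 1.86, Slc16a1 between 0.58 and 0.92, Acat1 between 0.20 and 0.37, Oxct1 between 0.11 and 0.18, Bdh1 between -0.0561 and 0.186 and Slc16a6 between -0.372 and 0.0135.

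Signs turned for small differences. Without control 3 and without soy 1, Bdh1 gave -0.0561 and -0.0446 by its brightest probe and -0.0787 and -0.0424 by the other, and Slc16a6 gave 0.0135 and 0.0047. The dimmer Oxct1 probe gave -0.0050 on the processed signal, -0.0034 without control 3 and -0.0204 without soy 3. Klb gave -0.0130 on the processed signal, -0.0052 after a 75th-percentile shift, -0.0821 for the mean of its probes, -0.224 without control 2 and -0.0355 without soy 3. With 1 array left out, the highest values of the other Bdh1 probe, the dimmer Oxct1 probe and Klb were 0.207, 0.141 and 0.218. Ppara gave -0.0174 for the mean of its probes, -0.125 without control 3 and -0.0467 without soy 1 (highest 0.214). The other named genes with alternatives run kept their sign in all of them. Slc16a13 and Crat fell short of the threshold in 8 of 18 alternatives each, among them an offset of 16 (limma, adjusted p = 0.0671 and 0.071), the replicate block (0.0827 and 0.0506) and the slide block (0.15 and 0.137).

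The number of probes past both thresholds, 198, became 77 with an offset of 16, 13138 on the processed signal (90.8% higher against 59.6%), 299 after the 75th-percentile shift (67.6% higher), 493 among probes well above background, 24 with the slide as a block (45.8% higher) and 23 to 199 with 1 array left out. Omitting control 1 left 102 and omitting control 2 left 71, and the soy-fed livers 1, 2 and 3 left 50, 25 and 23. The processed signal and the shift moved the median of all probes to 0.13. The cause was not tested. Replicate numbers did not pair the livers (correlations of deviations 0.12, -0.06 and 0.10), and the replicate block gave 77 probes, no member among them (Fgf21 at a limma adjusted p of 0.0675). Pairs that shared a slide correlated at 0.122 (control 1, soy 1), 0.078 (control 2, soy 1) and 0.097 (control 3, soy 3). Pairs on different slides lay between -0.206 (control 3, soy 1) and 0.105 (control 3, soy 2). The part of the slide in this was not tested.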
